A study of Homo sapiens with 38 samples.

Results

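The contacts of chromosome 1 with chromosomes 8, 9 and 12 were taken from the in situ Hi-C matrix of RWPE-1, an immortalized, non-tumorigenic line from normal human prostate epithelium. Members were the pairs of 40 kb GRCh37 bins with 1 bin on chromosome 1 and the other on chromosome 8, 9 or 12. They came to 3057455 bin pairs with at least 1 contact, of 30795631 in the matrix, and held 3596634 of its 88979102 read pairs. The 3 partner chromosomes were chosen by their number of contacts with chromosome 1 in this same matrix, so every contact value between them is a description and carries no test. The study used this line, and the prostate cancer line C4-2B, to examine the 7p15.2 prostate cancer risk region and HOXA13, a homeobox gene. Hi-C came from unedited wild-type RWPE-1 cells cut with MboI, and the authors combined the 2 replicates into 1 matrix, so contacts have no replicate spread. RNA-seq of RWPE-1 came from 7 genome-edited libraries with the 7p15.2 risk region deleted, 5 genome-edited wild-type controls, 3 libraries transfected with a HOXA13 expression vector and 3 transfected with the matching eGFP plasmid. Transfected cells were collected 48 hours later, and those in the top 10% for eGFP were kept. C4-2B is used here only through 3 control lines with 3 libraries each, in a table made separately from that of RWPE-1. The labels do not state a clone or culture for each RWPE-1 library, so p-values measure the spread between these libraries only.

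In Hi-C, pieces of chromatin that lie close together in the nucleus are ligated and counted, and most ligations join pieces of 1 chromosome that lie near each other along the DNA. Where a translocation joins 2 chromosomes, bins on the joined sides contact each other as if they were neighbours, the contacts fall with distance from the joint, and they stop at the bin where each chromosome was broken. On a map of bin pairs this makes a block that is brightest at 1 corner, and the corner gives the breakpoint on both chromosomes. Below, "breakpoint" means such a corner or edge in the contact map. A ratio of observed to expected contacts divides the read pairs by the number expected from how often each bin contacts other chromosomes, scaled to the 17 other autosomes. Bins on the higher-coordinate side of a breakpoint are called its upper side, and those on the other its lower side.

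MboI cuts at GATC, so ligations counted in the 40 kb bins begin at these letters, and 4 promoters beside the breakpoints are shown with GATC in capitals. C1orf116 was the first gene above the place where contacts with 9q stopped, WNT9A was placed across an edge, KDM5A was the nearest transcribed gene to the 12p end, and TAF1A was the nearest transcribed gene above another edge. Sequences are from RefSeq on GRCh38.p14, 300 bases around each gene's start, written 5′ to 3′ on the gene's strand.
C1orf116 (chr1:207032707-207033006, minus strand): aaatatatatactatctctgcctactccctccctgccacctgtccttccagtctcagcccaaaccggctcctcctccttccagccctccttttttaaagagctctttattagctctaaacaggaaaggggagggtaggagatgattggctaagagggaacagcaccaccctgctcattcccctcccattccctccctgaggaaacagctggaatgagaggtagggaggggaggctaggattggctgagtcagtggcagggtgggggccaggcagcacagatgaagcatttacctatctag
TAF1A (chr1:222589884-222590183, minus strand): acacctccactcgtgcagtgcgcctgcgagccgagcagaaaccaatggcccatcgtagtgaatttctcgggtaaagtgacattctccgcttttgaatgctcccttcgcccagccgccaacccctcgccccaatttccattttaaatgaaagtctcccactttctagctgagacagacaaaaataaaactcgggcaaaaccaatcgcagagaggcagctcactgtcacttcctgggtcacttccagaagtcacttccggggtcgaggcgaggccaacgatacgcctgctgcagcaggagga
WNT9A (chr1:227947883-227948182, minus strand): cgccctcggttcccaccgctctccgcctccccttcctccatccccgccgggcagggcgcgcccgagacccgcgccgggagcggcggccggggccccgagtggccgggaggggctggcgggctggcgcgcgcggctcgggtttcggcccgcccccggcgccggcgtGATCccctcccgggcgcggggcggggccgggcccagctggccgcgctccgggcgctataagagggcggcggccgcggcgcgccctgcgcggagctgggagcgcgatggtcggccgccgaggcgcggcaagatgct
KDM5A (chr12:389271-389570, minus strand): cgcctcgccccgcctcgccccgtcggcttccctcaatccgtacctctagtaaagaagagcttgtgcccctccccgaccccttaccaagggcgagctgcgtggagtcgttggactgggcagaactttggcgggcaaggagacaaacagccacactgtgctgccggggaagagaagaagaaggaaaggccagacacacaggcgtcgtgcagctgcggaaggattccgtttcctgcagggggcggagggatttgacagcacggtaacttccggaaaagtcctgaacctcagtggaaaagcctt
Of these 4 stretches, only that of WNT9A held GATC, once, at position 166. Over all RefSeq promoters of this length, 14655 of 35116 (41.7%) held it. CAATAAA, letters that HOX13 proteins are known to bind, was in none of the 4 on either strand and in 1406 of all promoters (4.0%). An absent match says only that these letters are not in this window.

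Chromosome 1 contacted chromosomes 8, 9 and 12 more, relative to expected, than any of the 17 other autosomes compared, which leave out chromosome 2. The ratio of observed to expected contacts was 2.08 with chromosome 8, 1.96 with chromosome 12 and 1.69 with chromosome 9, and it lay between 0.916 and 1.26 for those 17 (median 1.00). Chromosome 8 held 1202430 read pairs in 892972 bin pairs, chromosome 9 held 1198603 in 1091388, and chromosome 12 held 1195601 in 1073095. Only 3.91% to 5.14% of possible bin pairs had any contact, so single bin pairs say little and sums over windows are given. The extra contacts took a different shape on each partner: corners on distal 8q and stripes along 8q, a whole long arm on chromosome 9, and a whole chromosome on chromosome 12.

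The strongest corner joined 1q to 8q. Between chr1:219200001-219240000 and chr8:122920001-122960000, the 10 by 10 bins on the upper side of both held 8648 read pairs where 6.96 were expected. The ratio was 1242 (95% exact Poisson interval 1216 to 1268, which, like all such intervals here, covers counting error only), and the next highest of the 4 quadrants reached 33.0. The upper side of both bins thus held the contacts, and the other 3 quadrants far fewer.

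The same 8q bin met chromosome 1 at 2 further corners. On the upper side of chr1:181040001-181080000, contacts with the lower side of chr8:122920001-122960000 reached 3037 read pairs against 4.45 expected, a ratio of 682 (interval 658 to 707, next quadrant 19.0). On the lower side of chr1:222200001-222240000, contacts with the lower side of the same 8q bin reached 2101 read pairs against 6.35, a ratio of 331 (interval 317 to 346, next quadrant 42.8). Both sides of this 8q bin were thus in contact with 1q, its upper side at 219.2 Mb and its lower side at 181.04 Mb and 222.24 Mb.

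A second place on 8q, near 140.4 Mb, gave 3 more large corners. On the lower sides of chr1:191000001-191040000 and chr8:140440001-140480000, 2499 read pairs stood against 4.45 expected, a ratio of 562 (interval 540 to 584). On the upper sides of chr1:225200001-225240000 and the same 8q bin, 2297 stood against 6.10, a ratio of 376 (interval 361 to 392). On the upper side of chr1:187880001-187920000 and the lower side of chr8:140400001-140440000, 651 stood against 3.80, a ratio of 171 (interval 159 to 185). Contacts at this last corner grew along 1q away from it, towards the corner at 191.04 Mb, as the maps around the corners show. This 8q place too had both of its sides in contact with 1q. The corner at 225.2 Mb is the least sharply placed: with windows of 5 bins it fell at chr1:225400001, and on the profile of contacts along 1q the step came at 225.4 Mb.

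**Figure D1:**
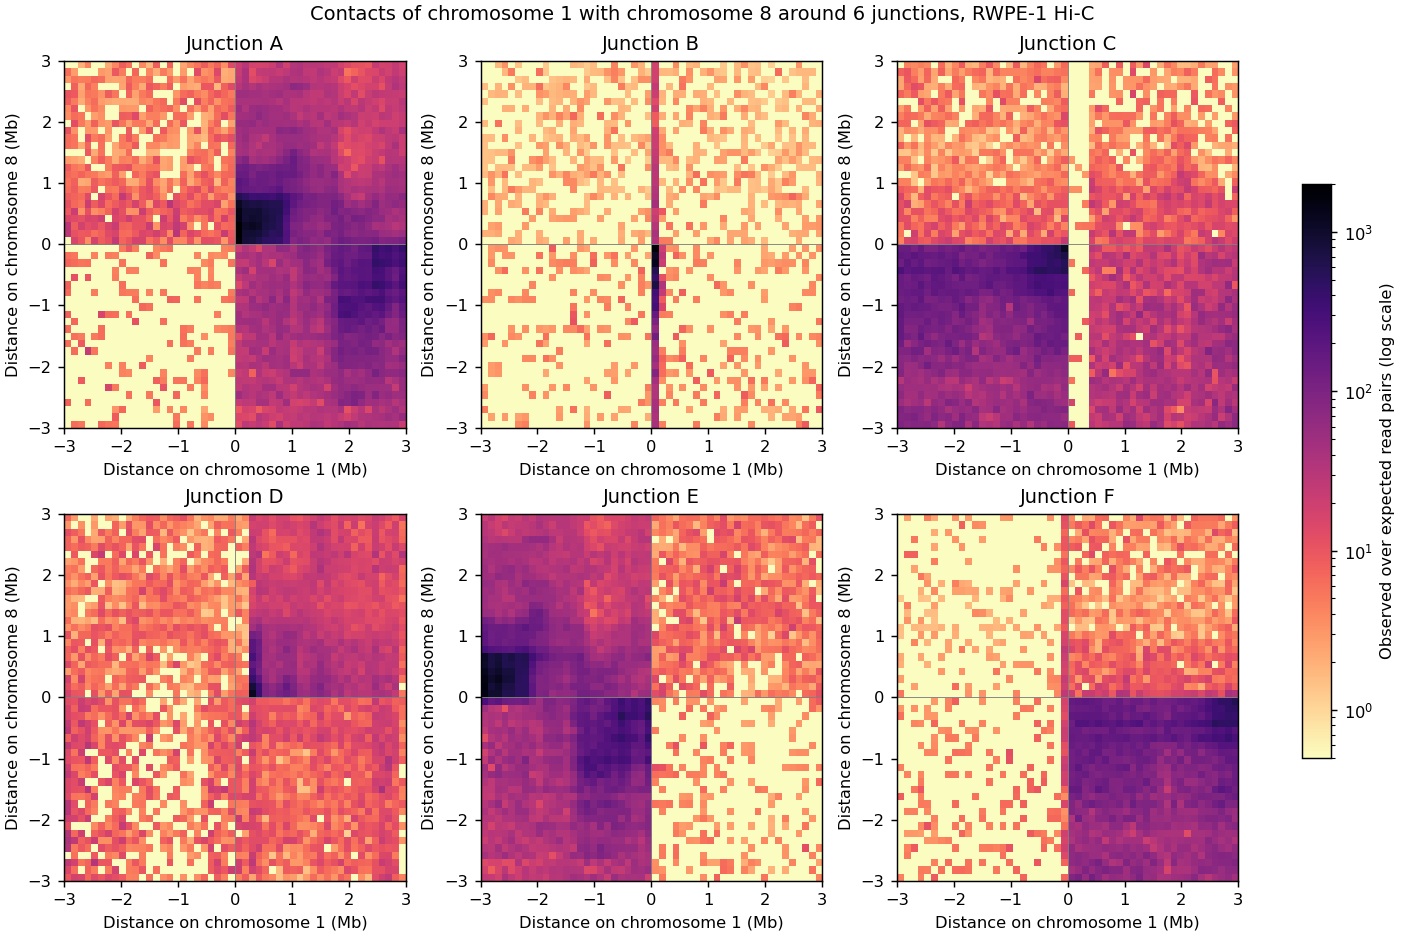
Maps of observed over expected contacts (log colour scale) in squares of 3 by 3 bins of 40 kb, within 3 Mb of 6 corners between 1q and 8q, with distance from the corner in Mb on both axes (chromosome 1 across, chromosome 8 up). Panels A, B and E share the 8q place near 122.92 Mb and panels C, D and F that near 140.4 Mb; the quadrant named in the text is bright in each, with ratios from 1242 in A to 171 in F, the strip of B is narrow, the bright block of D begins 0.2 Mb above the corner, and that of F grows brighter away from it.

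A search of chromosome 1 bin pairs with these partners was made after the data were seen. It needed covered bins in all 4 quadrants, so the corner of the ends of chromosomes 1 and 12, described below, could not be found by it. It found 12 corners with a ratio of at least 20, and 7 of them held 500 read pairs or more, all 7 with chromosome 8. The seventh lay on the upper side of chr1:225160001-225200000 and the lower side of chr8:141440001-141480000, with 685 read pairs and a ratio of 90.6 (interval 83.9 to 97.7). A small one, of 166 read pairs and a ratio of 41.7, joined the upper sides of chr1:191400001-191440000 and chr8:122960001-123000000. The same search of the 17 other autosomes found 41 corners, of which 6 held 500 read pairs or more, 3 of them on chromosome 21, 2 on chromosome 10 and 1 on chromosome 4. Corners of this size with chromosome 1 were therefore found on other autosomes as well. The points at chr1:91880001 with chromosome 8 and chr1:91520001 with chromosome 12 lay beside a bin that had 9.76 times the median contacts with all other autosomes. The pair of chromosome ends at chr1:400001 and chr8:280001 had a high ratio, 576 (interval 496 to 665), but rested on 185 read pairs against 0.321 expected. A point at chr1:223440001 with chr9:139200001 held 151. These 4 corners, small in read pairs, are not described further.

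Seen along 1q, contacts with 8q rose and fell in steps that marked out 3 islands. Contacts with 8q in windows of 0.4 Mb rose from a ratio of 1.02 to 15.5 at 187.76 Mb and fell from 22.4 to 2.31 at 191.04 Mb. They rose from 3.20 to 29.4 at 219.2 Mb and fell from 16.7 to 3.00 at 222.24 Mb. They rose from 2.48 to 11.2 at 225.4 Mb and fell from 8.12 to 2.05 at 228.12 Mb. Each island was therefore about 3 Mb long: 3.28 Mb, 3.04 Mb and 2.72 Mb.

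The islands differed in which stretch of 8q they contacted most. The island from 187.76 Mb had ratios of 18.1 with 8q below 122.92 Mb, 27.4 with 8q between the 8q breakpoints and 4.58 with 8q beyond 140.44 Mb. The island from 219.2 Mb had 11.6, 43.5 and 6.35 with the same 3 stretches. The island from 225.4 Mb had 6.504, 8.315 and 22.974. Thus the first and the second island were highest with the middle stretch of 8q, and the third with its end. Outside the islands, 1q above 191.4 Mb still had ratios of 4.29 to 8.80 with the middle stretch, while 1q below 181.04 Mb had 0.883.

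At 181.04 Mb the contacts with 8q formed a strip of 3 bins only. The bin from chr1:181040001 held 1593 read pairs with 8q (ratio 11.4), the next 4458 (19.2) and the next 3648 (26.8). The bin after them held 179 (2.74), and the 2 bins on either side of these 4 lay between 0.79 and 1.14. On general knowledge of the GRCh37 map, IER5, an immediate-early stress response gene, lies in the first of these bins. The strip is shorter than the window of 10 bins used for its corner, so its ratio in that window averages strip and flank.

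Between the end of the first island and the beginning of contacts with chromosome 12 lay a gap. The 8 bins from 191.04 to 191.36 Mb held 308 read pairs with 8q against 296 expected, a ratio of 1.04, while the bin just below stood at 23.9. Contacts with 8q resumed at chr1:191400001 with a ratio of 7.51. A stretch of 0.32 Mb was thus at the background level between 2 edges.

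Chromosome 9 gave no corner of the kind seen with 8q. The whole of 9q contacted 1q up to 207.16 Mb and no further: the ratio fell from 2.78 to 1.13 in the windows on either side. Contacts of 9q had ratios of 1.70 with 1p, 2.75 with 1q up to 191.36 Mb, 3.08 from there to 207.16 Mb and 1.02 beyond. The short arm, 9p, lay between 0.920 and 0.995 with every stretch of chromosome 1. The edge on chromosome 1 was therefore placed to a bin, and that on chromosome 9 only to the duplicated stretch beside the centromere. There, contacts with 1q below 207.16 Mb went from 0.947 at 38 to 40 Mb to 1.93 at 40 to 48 Mb, 1.80 at 68 to 70.88 Mb and 4.76 at 70.88 to 72 Mb.

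At the edges of the first island the ratio with 9q also changed. At 187.76 Mb this ratio fell from 3.23 to 1.97, and at 191.04 Mb it rose again from 1.72 to 3.00. These are the bins where contacts with 8q rose and fell. The read pairs with 9q moved the other way, from 1754 to 1901 and from 1912 to 1454. The expected counts, set by coverage from the other autosomes, changed at these edges, so the ratios do not show a loss and gain of contacts. The island between those edges stood at a ratio of 1.87 with 9q, below the ratios of the windows on both of its sides. A further step in the 9q contacts went from 3.91 down to 2.49 at 199.96 Mb.

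All of chromosome 12 contacted 1q from 191.36 Mb to the end. The ratio stepped from 0.906 to 3.50 at 191.36 Mb, was 3.52 from there to 207.16 Mb and 4.85 beyond, and was 0.970 with 1p. The highest corner was that of the 2 chromosome ends: the last bins of 1q, from chr1:249240001, and the first mapped bins of 12p, at chr12:120001-160000, held 1373 read pairs against 2.09 expected, a ratio of 657 (interval 623 to 693). No other quadrant exists there, since both chromosomes end. Contacts of the last 10 Mb of chromosome 1 fell along chromosome 12 from 23.8 in its first 10 Mb to 16.7 at 30 to 40 Mb and 4.44 at 40 to 50 Mb. The third island had a lower ratio, 2.33, where the 3 Mb below it had 4.79 and the 3 Mb above it 3.82. Its read pairs were not fewer, at 39357 against 34435 below and 30644 above. Its expected count was 16865.6 against 7195.0 and 8022.6, so the lower ratio came with a higher expected count.

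**Figure D2:**
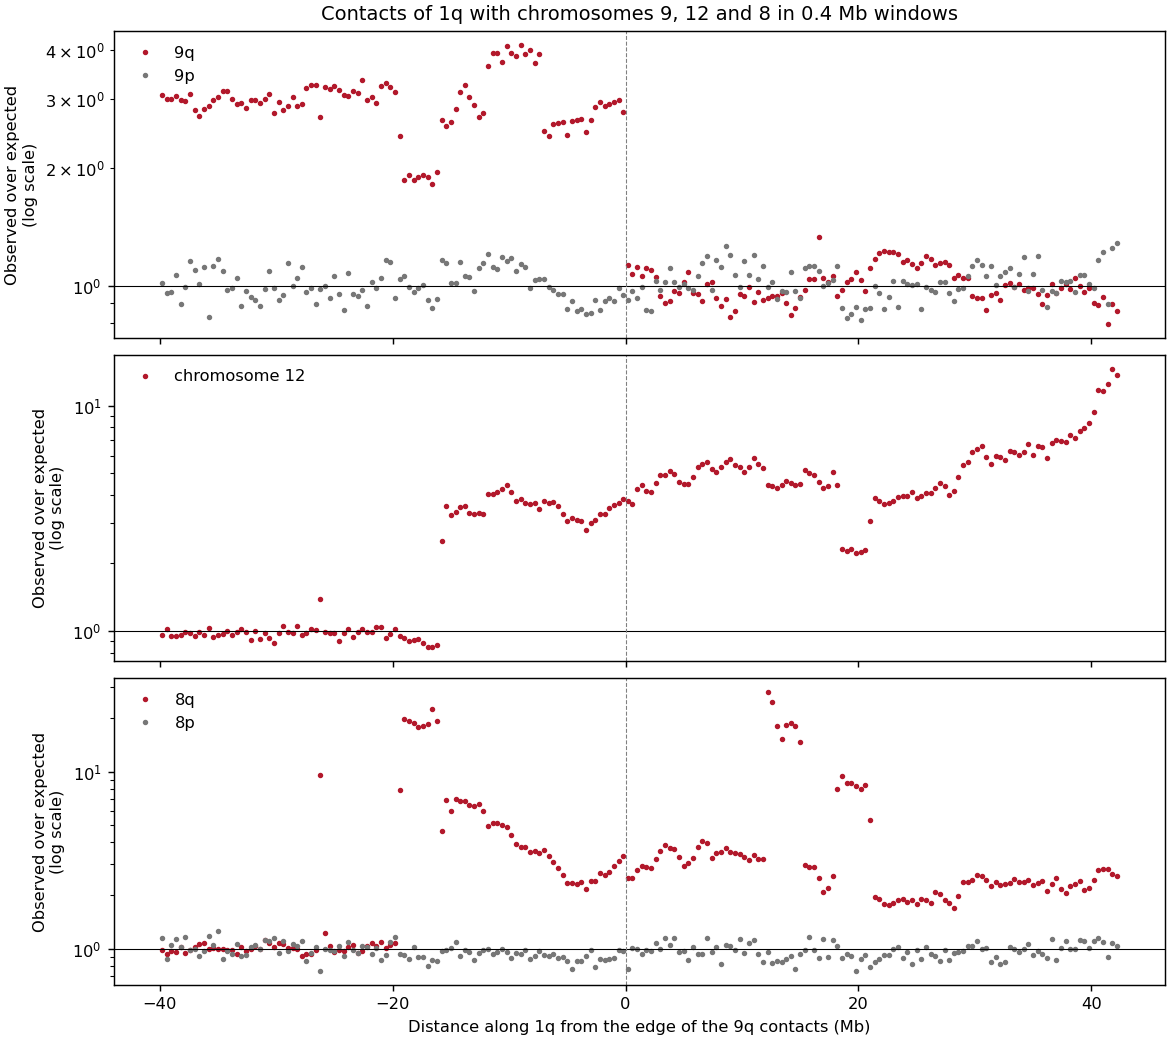
Observed over expected contacts of 0.4 Mb windows of 1q with the arms of chromosomes 8 and 9 and with chromosome 12 (vertical axis, log scale), against distance in Mb from the edge of the 9q contacts at 207.16 Mb. Contacts with 9q end at distance 0, those with chromosome 12 begin 15.8 Mb below it, and those with 8q form 3 islands with edges at 219.2, 222.24, 225.4 and 228.12 Mb on the upper side of the edge and 187.76 and 191.04 Mb on its lower side, while 8p and 9p stay near 1.

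Contacts of chromosome 1 with chromosome 2 were not used to place the breakpoints and served as a measure of how much of each stretch entered the matrix. The limit at 195.2 Mb is the exception: it was set at a step in this same coverage, so the difference between the stretches on its 2 sides is a description of that step. Raw coverage follows the number of copies but also mappability and accessibility, and these cannot be told apart here. Relative to the median bin of 1p, the stretch from 195.2 to 207.16 Mb stood at 2.29, the island from 219.2 Mb at 1.70 and the island from 225.4 Mb at 2.45. The first island stood at 1.08, and the stretches 191.36 to 195.2, 207.16 to 219.2, 222.24 to 225.4 and 228.12 Mb to the end at 0.823, 0.933, 1.08 and 1.04. Coverage from the other autosomes gave the same 3 high stretches at 2.00, 1.56 and 2.46. Relative to 1p, coverage was thus high in 2 of the 3 islands, whose limits came from the contacts with 8q. The first island, at 1.08, still stood above the stretch from 191.36 to 195.2 Mb, at 0.823. With 2 Mb flanks coverage rose at its lower edge and fell at its upper edge, while other flanks gave other steps, as listed at the end.

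Of 17 places on chromosome 1 where coverage stepped by at least 1.62 times, 5 lay within 0.12 Mb of an edge in the contacts described above. These were at 207.2 Mb (0.56 times, upper over lower side), 219.28 Mb (1.95 times), 222.24 Mb (0.56 times), 225.48 Mb (2.51 times) and 228.08 Mb (0.47 times). At the step at 195.2 Mb (2.22 times), contacts with the partners changed by less than the 0.5 on the log2 scale taken as an edge: from 2.76 to 3.65 with 9q, from 6.01 to 4.95 with 8q and from 3.30 to 4.04 with chromosome 12 in the adjoining windows. On chromosome 8 the bins of 8p had a median of 76 read pairs with chromosome 2, those of 8q 123 below 122.92 Mb, 220.5 between the breakpoints and 287 beyond 140.44 Mb. On chromosome 9 the medians were 107 for 9p and 252 for 9q, and on chromosome 12 137 for 12p and 148 for 12q. Coverage thus differed between the stretches of 8q and between the arms of chromosome 9. Placed by coverage alone, the steps nearest to the 8q breakpoints were at 122.96 Mb (1.66 times) and 140.96 Mb (1.68 times), and within the middle stretch coverage fell at 131.76 Mb (0.61 times).

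**Figure D3:**
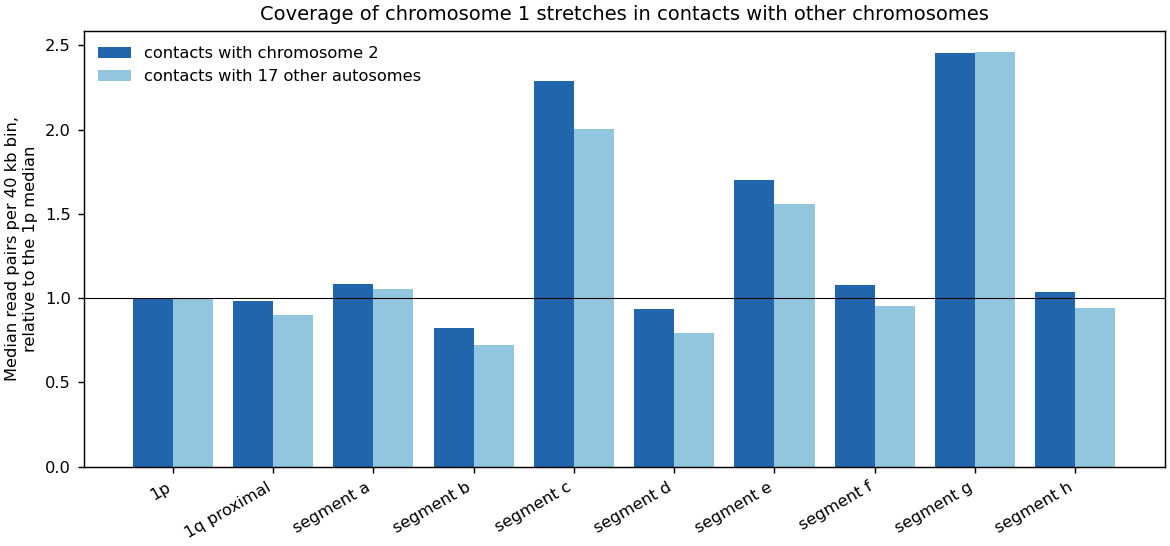
Median read pairs per bin with chromosome 2 (dark bars) and with 17 other autosomes (light bars), relative to the median bin of 1p at 1, for 1p, proximal 1q and the stretches of 1q from 187.76 Mb to its end in order (a to h). The stretch from 195.2 to 207.16 Mb (c, 2.29) and the islands from 219.2 Mb (e, 1.70) and 225.4 Mb (g, 2.45) stand above the others, whose dark bars lie between 0.823 and 1.08.

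Contacts within chromosome 1 across each edge were compared with those across all 5349 boundaries between its bins. Across 225.4 Mb they were 0.344 of the chromosome's median, lower than at all but 1.42% of boundaries. They were 0.420 across 207.16 Mb (percentile 4.30) and 0.442 across 228.12 Mb (5.74). At 181.04, 187.76, 191.04, 219.2 and 222.24 Mb they were 1.15, 1.50, 0.843, 0.879 and 0.801. Contacts across those 5 edges thus lay at percentiles from 33.0 to 76.5, within the middle range of the chromosome.

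Genes beside the breakpoints were taken by order. The gene at each edge was placed from general knowledge of the GRCh37 map, since no GRCh37 annotation was used here, and 5 protein-coding neighbours on each side were taken in RefSeq order on GRCh38.p14. This gave 108 genes. Of these, 69 had a mean of at least 1 TPM (transcripts scaled to a fixed total per library, a level per length) in the RWPE-1 controls and 68 in the C4-2B control lines, and their median level in RWPE-1 was 5.82 TPM. Of all 60252 genes in the table, 14105 and 14733 passed the same level.

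The RWPE-1 libraries carried the basal epithelial markers fixed for this check: 6 of 6 were above 1 TPM in controls, with KRT5, a basal keratin, at 9094 TPM. Of 9 luminal markers 3 passed, and KLK3, the gene of prostate-specific antigen, was listed at 0, while all 9 passed in C4-2B. Of the other cell types' markers, fibroblast had 1 of 4, immune 0 of 4, endothelial 0 of 2 and neuroendocrine 1 of 3 at 1 TPM or more. HOXA13 itself ranged from 0.65 to 2.41 TPM in controls, from 5.27 to 10.1 in deletion libraries, from 1.79 to 3.77 with eGFP and from 684 to 842 with the HOXA13 vector, whose own transcript cannot be told apart from the cell's. In bulk RNA a difference in the share of cells and one in RNA per cell cannot be told apart.

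At 181.04 Mb the nearest transcribed genes were MR1 below, which presents vitamin-like metabolites to T cells, and IER5 at the strip. IER5 was at 19.84, 17.77, 23.78, 21.16 and 26.96 TPM in the 5 controls and at 45.7 ± 2.72 TPM (SD, n = 3) with eGFP. All 3 eGFP libraries lay above all 5 controls, and the sets differ in transfection and sorting, whose part was not tested. Such separation was not particular to IER5, and its share over all genes was not counted, so it is not a result about genes beside the breakpoints. MR1, DUSP10 and KDM5A were also higher in every eGFP library than in every control, and PLA2G4A, TGFB2 and WNT9A lower. MR1 was at 6.27 ± 0.847 TPM (n = 5) and at 1.61 TPM in C4-2B, where IER5 was at 3.60. Further above, GLUL, glutamine synthetase, was at 618 ± 258 TPM. Its controls ran from 294 to 860.

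The island from 187.76 to 191.04 Mb lay in a gene-poor stretch. Below it stood PLA2G4A, the cytosolic phospholipase that releases arachidonic acid, at 3.04, 2.93, 3.86, 3.40 and 5.41 TPM in the controls. PTGS2, the inducible cyclooxygenase that uses that arachidonic acid, was at 1.27 ± 0.465 TPM in controls and 9.11 ± 0.50 (n = 3) with eGFP. Both were at or below 0.02 TPM in C4-2B. BRINP3, inside the island, was listed at 0 in all 5 RWPE-1 controls, as were the G protein regulators RGS18 and RGS21 above it, and the nearest transcribed gene above was RGS2 at 1.70 ± 0.578 TPM. None of the genes taken from the island up to RGS2 thus reached a mean of 1 TPM in the controls.

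At 207.16 Mb, where contacts with 9q ended, the 5 neighbours below were all under 1 TPM and 3 of the 5 above were not. Below it, the immunoglobulin receptor genes FCAMR and FCMR and the cytokine gene IL24 were at 0.004, 0.648 and 0.048 TPM, and PIGR and IL20 were listed at 0 in the controls. Above it, C1orf116 was at 25.30, 24.82, 45.71, 26.70 and 39.07 TPM in the controls. PFKFB2, which sets the level of a glycolytic activator, was at 14.0 ± 3.60 and the deubiquitinase gene YOD1 at 11.002 ± 2.648 TPM. The next genes above, C4BPB and C4BPA, which encode a complement inhibitor, were listed at 0 in the controls. C1orf116 was at 46.7 TPM in C4-2B, above all 5 RWPE-1 controls and within the ranges of the deletion, eGFP and HOXA13 libraries.

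At the island from 219.2 to 222.24 Mb, TGFB2, a TGF-beta ligand, was the nearest transcribed gene outside and LYPLAL1 the nearest inside. TGFB2 was at 8.55, 8.44, 6.37, 12.84 and 5.11 TPM in the controls, and LYPLAL1 at 21.21, 17.07, 25.03, 23.36 and 31.55. EPRS1, which charges transfer RNA with glutamate and proline, was the highest gene of the island's lower end at 79.3 ± 2.53 TPM. At the upper end, DUSP10, a phosphatase of the JNK and p38 kinases, was at 5.37 ± 1.96 and MTARC1, a mitochondrial reductase, at 1.26 ± 1.30. In C4-2B, MTARC1 was at 264 TPM and LYPLAL1 at 98.9, each above every RWPE-1 library and set side by side without a test.

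Between the islands lay TAF1A, a subunit of the factor that starts ribosomal RNA transcription, at 10.9 ± 1.55 TPM, AIDA at 81.9 ± 4.53 and MIA3, which helps export collagen, at 56.7. At 225.4 Mb the edge was placed within DNAH14, an axonemal dynein gene, which was at 4.99, 4.14, 11.34, 8.75 and 7.56 TPM in the controls. Just above it LBR, the lamin B receptor, was at 45.3 ± 6.08, ENAH, an actin regulator, at 90.7 ± 4.69 and SRP9, of the signal recognition particle, at 504 ± 42.6 TPM. Of the genes beside the 1q breakpoints that are named here, only GLUL was above SRP9 in the RWPE-1 controls. At 228.12 Mb the edge was placed at WNT9A, a WNT ligand gene, which was at 1.40, 1.30, 1.47, 2.36 and 1.14 TPM, next to WNT3A at 0.444. ARF1 and GUK1, a GTPase of the Golgi and guanylate kinase, followed at 299 ± 43.4 and 337 TPM.

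At the 8q breakpoint near 122.92 Mb, HAS2, a hyaluronan synthase gene, was at 0.426 TPM on its lower side. The next gene below, SNTB1, was at 3.42, 3.57, 0.23, 0.58 and 0.86 TPM, so that controls 1 and 2 stood above the others. ZHX2, a transcription factor gene, was at 2.01 ± 0.342 TPM on the upper side and at 9.45 in C4-2B. FAM83A was at 28.1 TPM in RWPE-1 and 0.194 in C4-2B. At the breakpoint near 140.44 Mb COL22A1 and the potassium channel gene KCNK9 were at 0.006 and 0.008 TPM. Above them TRAPPC9 was at 11.10, 12.48, 6.92, 7.47 and 20.26 TPM, with control 5 the highest, and PTK2, focal adhesion kinase, at 57.8.

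At the end of 1q the last gene, PGBD2, was at 3.43 ± 0.282 TPM, and the zinc finger genes ZNF692 and ZNF672 next to it were at 31.1 and 9.44 TPM. SH3BP5L followed at 9.86. The first genes of 12p, IQSEC3, SLC6A12 and SLC6A13, were at 0.002, 0.020 and 0.012 TPM. KDM5A, a histone demethylase gene, was the nearest transcribed one at 14.71, 9.86, 9.81, 9.74 and 13.61 TPM, and CCDC77 followed at 9.34 ± 0.535. On 9q PGM5 was at 0.026 TPM and PABIR1 the nearest transcribed gene at 3.98 ± 0.261.

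**Figure D4:**
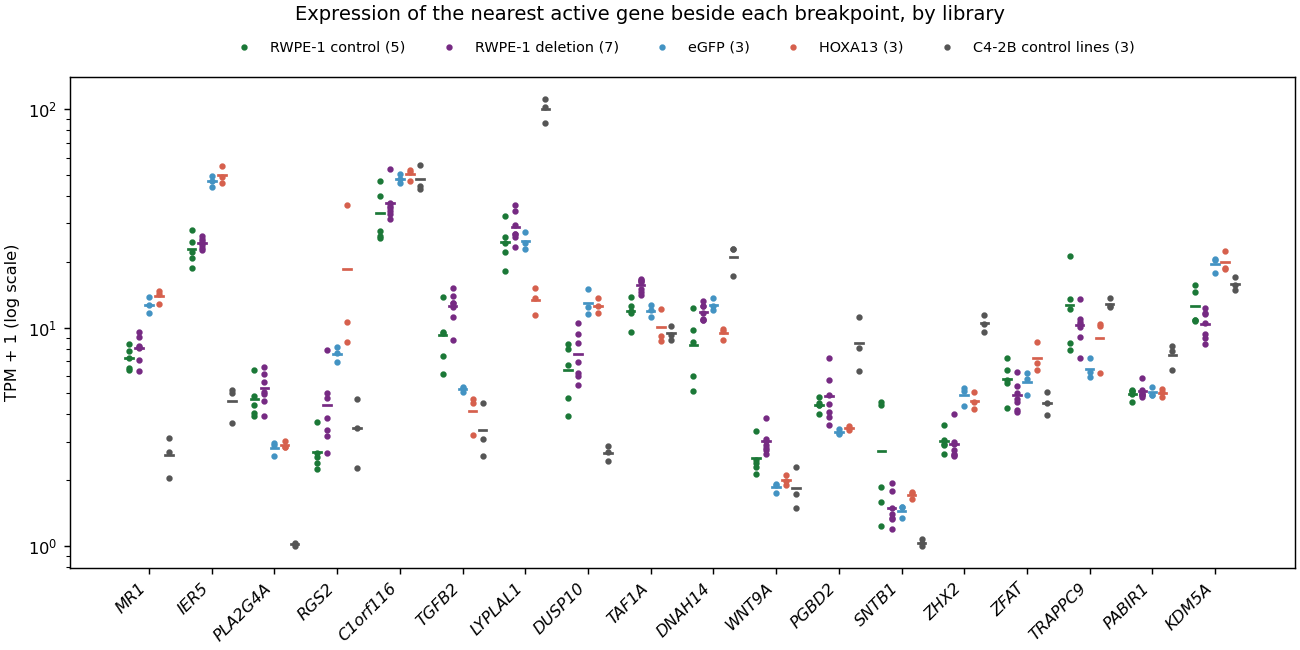
Expression (TPM + 1, log scale) of 18 genes at or next to the breakpoints, 1 point per library with a line at each group mean, for RWPE-1 controls, deletion, eGFP and HOXA13 libraries and the C4-2B control lines. IER5, MR1, DUSP10 and KDM5A are among the genes higher in both transfected sets than in controls, PLA2G4A and TGFB2 among those lower. The share of all genes so separated was not counted. LYPLAL1 is lower with HOXA13 than with eGFP.

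The deletion of the risk region and the overexpression of HOXA13 were each compared with their controls by limma on log2(TPM + 1), with Benjamini-Hochberg adjustment over all genes tested. In the deletion comparison 4 of the 69 tested genes beside the breakpoints were called (5.8%) against 10.3% of all 14186 genes, and 18 had an unadjusted p under 0.05 against 3960 of all. The share called was below the background. All 4 were higher in deletion libraries (6.46% of all genes were called higher and 3.86% lower, 917 against 547 genes, which became 597 against 694 after median-ratio scaling of the TPM). The 69 genes had a median log2 difference of 0.11 and all genes 0.05. Groups did not overlap for 2 of them (2.9%) against 6.70% of all genes.

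All 4 called genes lay between the second and the third island, from 222.24 to 225.4 Mb, which had coverage near that of 1p. TAF1A was at 11.58, 8.56, 12.79, 10.70 and 10.89 TPM in controls and from 13.1 to 15.8 (median 15.1) in deletion libraries, without overlap. Its log2 difference was 0.40 (SE 0.09, adjusted p = 0.0128 by limma). AIDA, a binding partner of axin, rose by 0.18 (SE 0.05, adjusted p = 0.0333), with 74.57 to 86.78 TPM in controls and 86.1 to 98.4 in deletion libraries, so the groups overlapped. DEGS1, the desaturase that makes ceramide, rose by 0.19 (SE 0.05, adjusted p = 0.0418), from 53.33 to 59.98 TPM in controls to 58.97 to 68.88. WDR26, a subunit of a ubiquitin ligase, rose by 0.21 (SE 0.06, adjusted p = 0.0485), from 30.14 to 36.25 TPM to 34.83 to 43.71.

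TAF1A passed in 15 of 16 alternative fits and failed with the replicate number as a block (adjusted p = 0.104 by limma). AIDA failed in 9, DEGS1 in 12 and WDR26 in 13. With 1 library left out, between 1 and 6 genes were called. Only 1 was called without control 5 or without deletion 1, 5 or 6, 2 without deletion 2 or 3 or control 2, and 6 were called without control 3 or control 4. In the authors' deposited table, TAF1A had a log2 fold change of 0.32 (adjusted p = 0.00224) and WDR26 0.14 (adjusted p = 0.0379), while AIDA and DEGS1 did not pass there (adjusted p = 0.160 and 0.0907).

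Of the genes at the edges themselves none was called in the deletion comparison. DNAH14 differed by 0.56 on the log2 scale (adjusted p = 0.0655 by limma), with controls from 4.14 to 11.34 and deletion libraries from 9.79 to 12.22 TPM.

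In the HOXA13 comparison 0 of 73 tested genes beside the breakpoints were called by limma, against 0.0135% of all 14814 genes (2 genes), and 8 had an unadjusted p under 0.05 against 2002 of all. Groups did not overlap for 15 genes (20.5%) against 21.1% of all genes, near the background. LYPLAL1, a lysophospholipase-like gene inside the second island, was named for this comparison after its values were seen. It was at 26.52, 23.28 and 21.86 TPM with eGFP and at 10.38, 12.67 and 14.14 with HOXA13, without overlap, a log2 difference of -0.90 (SE 0.13, adjusted p = 0.199 by limma). The authors' deposited table gave it -0.47 (adjusted p = 0.00416). In the deletion comparison, whose controls are other libraries, the same gene was at 17.07 to 31.55 TPM in controls and 22.47 to 35.60 in deletion libraries.

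Expression along the partner chromosomes was then read per stretch, as the median over its genes of the log2 difference between the means of RWPE-1 controls and C4-2B control lines, relative to the median of all genes. This compares tables normalized separately and carries no test. The difference was 0.55 for 9q (376 genes) and 0.35 for 9p, 0.20 for 8q between its breakpoints (31 genes), -0.16 for 8q beyond them and -0.09 for chromosome 12. It was -0.18 for 1q from 195.2 to 207.16 Mb, -0.53 for the second island (11 genes) and -0.73 for the third (18 genes). It was -0.78 for the stretch between those islands (14 genes), -0.55 for 8p and -0.33 for 8q below its breakpoints, so values as low as those of the islands were seen outside them.

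One RWPE-1 control stood apart from the other 4 along chromosome 8. In control 5, 28 of 30 genes of 8q between the breakpoints and 67 of 69 beyond them were above the mean of the other controls, with median log2 differences of 0.50 and 0.60. Of 135 genes of 8p, 2 were above, with a median of -0.90. The genes of 8q below the breakpoint had a median of 0.04, and all genes 0.05. For each of the other 4 controls set against the rest, the same medians lay between -0.20 and -0.07 for 8q between the breakpoints, between -0.22 and -0.08 beyond them and between 0.17 and 0.27 for 8p. There the rest includes control 5, so these medians partly mirror it and do not give the spread among the other 4. Single genes beside the breakpoint near 122.92 Mb varied: in order along 8q, DSCC1, DEPTOR, MRPL13, MTBP, SNTB1, ZHX2 and DERL1 differed by 1.23, 1.15, 0.85, 0.58, -0.43, -0.05 and 0.51 on the log2 scale in control 5, so where the higher levels begin was not placed. These genes were chosen after their values were seen.

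The other RWPE-1 groups were read on the same scale, as the median deviation from the mean of all 5 controls. Genes with a control mean of at least 1 TPM were used. The controls set that mean and the choice of genes, so their own medians are held close to it. Lying outside the controls' range is therefore a description only. Beyond 140.44 Mb on 8q it was 0.28 to 0.29 with eGFP, 0.36 to 0.41 with HOXA13 and -0.20 to 0.03 in the 7 deletion libraries. Control 5, at 0.48, lay above all of these, and the other 4 controls lay between -0.18 and -0.07. On 8p the deviation was -0.04 to -0.02 with eGFP, -0.02 to 0.06 with HOXA13 and 0.18 to 0.31 in deletion libraries. Control 5, at -0.72, lay below all of these, and the other 4 controls lay between 0.14 and 0.21. On 9p it was -0.22 to -0.16 with eGFP and -0.21 to -0.11 with HOXA13, below all 5 controls (-0.08 to 0.04). In the second island only 9 genes were used. There the median was 0.46 to 0.78 with eGFP, 0.29 to 1.04 with HOXA13 and 0.14 to 0.40 in deletion libraries. All 5 controls lay below these (-0.04 to 0.02). Such shifts were not particular to these stretches. Between the second and the third island the median was -0.18 to -0.16 with eGFP and -0.44 to -0.18 with HOXA13. All 5 controls lay above these (-0.03 to 0.07). In the third island it was 0.14 to 0.25 with eGFP and 0.15 to 0.295 with HOXA13, above all 5 controls (-0.13 to 0.12). On 9q all 3 groups overlapped the controls. The part of transfection, sorting and editing in these values was not tested. Levels beside the 8q breakpoints therefore rest partly on control 5: TRAPPC9 and CHRAC1 were highest in it, at 20.26 and 76.6 TPM, and their control means of 11.6 and 53.0 TPM became 9.49 and 47.1 without it.

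**Figure D5:**
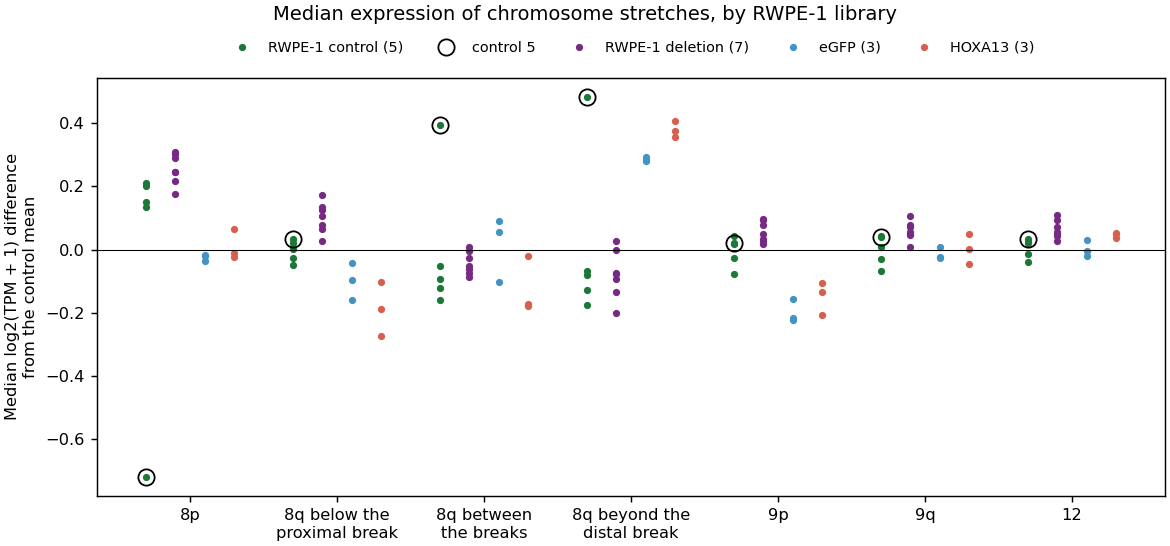
Median log2 deviation from the mean of the RWPE-1 controls for each arm or stretch of chromosomes 8, 9 and 12, over genes with a control mean of at least 1 TPM. There is 1 point per RWPE-1 library, and control 5 is circled. Control 5 sits at -0.72 on 8p, 0.40 on 8q between the breakpoints and 0.48 beyond them, apart from the other 4 controls; on 9q the controls lie within -0.07 and 0.04.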

How the data were processed

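Hi-C counts were deposited by the authors as raw contact matrices of 40 kb and 5 kb bins on GRCh37 with both replicates combined, made with HiC-Pro 2.8.0 per the submitters' processing notes, from about 500 M read pairs of 75 bp per library per the labels. The incomplete last line of each matrix was dropped; the 40 kb rows reach into chromosome 2 (6071 of its 6080 bins), and the 5 kb rows end at 27.75 Mb of chromosome 1, where both gave the same sums. Expected counts were the product of coverages, chromosome 1 bins from 17 other autosomes and partner bins from chromosome 2, using bins with at least 0.2 of the median coverage. Corners were located with windows of 10 bins, junctions as 1 Mb blocks with a ratio of at least 5 and at least 20 read pairs; the method was tested on simulated data. The corner search, the edges along 1q, the coverage steps, the stretches and the 3 and 10 neighbours were chosen after the data were seen.

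TPM were deposited by the authors per gene, made with STAR 2.5.2b and RSEM 1.3.0 among the tools in the submitters' processing notes; the roles of the tools are not given in the sources used here. TPM keep no depth, so the depth behind a level is unknown. The authors' deposited tables of their own comparisons give log2 fold changes, p-values and a mean normalized signal per gene. limma 3.58.1 (R 4.3.3, trend, two-sided) was run on log2(TPM + 1) over genes that reached 1 TPM in at least the number of libraries in the smaller group; adjusted p under 0.05 was called, and fold changes of low genes are understated on this scale. Named genes are, per breakpoint, the gene across it or the nearest at 1 TPM or more on each side, the 3 highest per side, and any called. Of 4445 RefSeq protein-coding genes on chromosomes 1, 8, 9 and 12, 4318 matched the tables. The levels of some luminal markers are not reported here. The regions and all lists were chosen with earlier results of these data known. Python 3.11.15, numpy 2.4.6, pandas 2.3.3 and scipy 1.17.1 were used.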

Additional observations from a re-analysis of the deposited data

Results flagged for a closer look

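Genes beside the breakpoints and stretches of chromosomes were checked in the 5 controls and in the 7 deletion libraries. Of these 174 groups, 17 held a library far from the others. Chance alone gives about 1 in 20 by the critical values used, and the groups share libraries. Genes under 1 TPM in every library of a group could not be flagged, yet count among the 174, so the 2 rates are not alike. Control 5 gave 5 of them: C8orf76 at 21.64 TPM (others 12.57 to 14.02), CHRAC1 at 76.64 (43.69 to 51.84), and median log2 deviations of -0.72 for 8p (others 0.14 to 0.21), 0.40 for 8q between the breakpoints (-0.16 to -0.05) and 0.48 beyond them (-0.18 to -0.07). Control 2 gave the stretch of 1q above 228.12 Mb at -0.11 (others 0.003 to 0.045) and TPR at 65.68 TPM (51.23 to 55.39).

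Control 4 was high for RGS2 at 2.70 TPM (others 1.24 to 1.65) and for WNT9A at 2.36 (1.14 to 1.47), and control 1 for DEGS1 at 59.98 (53.33 to 54.99). Deletion library 6 was high for WNT9A at 2.87 TPM (others 1.64 to 2.07), for ZHX2 at 3.00 (1.57 to 1.98) and for PABIR1 at 4.86 (3.83 to 4.17). Among the other deletion libraries, number 7 was high for C1orf116 at 52.39 TPM (30.34 to 36.27), number 4 for KHDRBS3 at 2.91 (1.00 to 1.64), number 3 for XPR1 at 21.26 (17.27 to 18.75) and number 5 for ZNF672 at 12.11 (8.75 to 9.85). All 13 of these gene values stood high, none low.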

How the results depend on the processing

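The block rule gave 16 junctions with chromosome 8, 15 with chromosome 9 and 24 with chromosome 12; with chromosome 9 it gave 28 at a threshold of 3 and 7 at 10, and with chromosome 12 it gave 12 at 10. Windows of 25 bins moved the 219.20 Mb corner to chr1:219040001 and chr8:122760001, the 225.20 Mb corner to chr1:224720001 and the chromosome ends to chr1:248520001 and chr12:520001. Windows of 5 bins moved 225.20 Mb to chr1:225400001 and the end to chr1:249120001, and raw counts moved 181.04 Mb to chr1:180920001 and 225.20 Mb to chr1:225480001. The ratios at the corners from chr1:219200001, chr1:181040001, chr1:191000001, chr1:225200001 and chr1:249240001 became 1511.07, 1208.75, 823.24, 807.29 and 851.77 with windows of 5 bins, 645.46, 218.4, 313.82, 116.74 and 469.77 with 25 bins, and 1416.04, 497.29, 429.82, 559.34 and 348.46 with a flat expected count. That at chr1:191000001 was 640.84 over bins with at least 0.5 of the median coverage.

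Coverage steps (upper over lower side, 5 Mb flanks) at 181.04, 187.76, 191.04, 207.16, 219.2, 222.24, 225.4 and 228.12 Mb of 1q were 1.14, 1.06, 1.03, 0.446, 1.80, 1.16, 1.40 and 0.630, and 1.81 and 1.91 at the 8q breakpoints. With 2 Mb flanks they were 1.017, 1.402, 0.779, 0.518, 2.268, 0.531, 2.317, 0.46, 1.93 and 2.09, so those at 191.04 and 222.24 Mb reversed. With 10 Mb flanks they were 1.085, 1.178, 1.539, 0.414, 1.804, 1.29, 1.313, 0.706, 2.06 and 1.512.

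The deletion comparison called 1464 genes, 917 higher and 547 lower, and 1291, 597 higher and 694 lower, with median-ratio scaling. Leaving out 1 library gave 1072 to 1998 genes. Beside the breakpoints the 4 called genes became 1 with median-ratio scaling, 1 to 6 with 1 library left out, 2 with 3 neighbours per side and 10 with 10. Replicate numbers did not pair the libraries (correlations of deviations -0.18 to 0.14 over 5 numbers in the deletion and -0.02 to 0.01 over 3 in the HOXA13 comparison); with the replicate block 449 genes were called in the deletion comparison, 0 beside the breakpoints, and 1 in the HOXA13 comparison. The 2 genes of the HOXA13 comparison became 1 without a filter and 1 to 5 with 1 library left out, and 0 beside the breakpoints in every fit run. The cause of these changes was not tested. All 360 levels with 1 control left out moved by no more than 1 SD. Leaving out 1 of 5 values cannot move their mean by more than that, so this says nothing about how stable the levels are. Distances of 200 and 1000 kb for neighbouring genes were not run, for want of positions on the build.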
